A study of Mus musculus with 6 samples.

Results

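In 4T1 cells, 10 genes that encode serine proteases of the epithelial surface and their dedicated inhibitors were examined, and all 10 were measured among 19933 genes. The members were chosen by gene symbol, with earlier results of these data known. They comprised 8 proteases (St14, Prss8, Prss22, Tmprss2, Tmprss4, Tmprss11e, Klk6 and Klk10) and 2 Kunitz-type inhibitors (Spint1 and Spint2). Each had a single probe set that the array annotation pairs with it alone. The 4T1 line was derived from a mammary tumor of a BALB/c mouse. Total RNA was hybridised to Affymetrix Mouse Gene 1.0 ST arrays, 3 of untreated parental cells, called WTR-, and 3 of MR13 cells, the offspring of parental cells that outlived selection with methotrexate (MTX), a folate antagonist. For MR13 the labels state MTX at 13 µg/ml, which differs from the dose in the study's methods. Survivors were moved to drug-free medium, but whether any MTX remained at RNA extraction is not stated in the labels. MR13 is 1 selected line, and the arrays of a group came from the same line. The study calls them biological replicates. The p values therefore measure the spread between replicates of a line and not between separate selections. Values are log2 signals normalised by the authors, a difference of 1 is a 2-fold change, and fewer cells expressing a gene cannot be told apart from less RNA per cell in these bulk samples.

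Matriptase, encoded by St14, is a transmembrane protease on the surface of epithelial cells and heads a proteolytic cascade there. With the membrane-anchored protease prostasin (Prss8) it shapes tight junctions and barrier function, and it cleaves the precursors of hepatocyte growth factor and urokinase and the adhesion molecule EPCAM. Both proteases are held in check by the hepatocyte growth factor activator inhibitors HAI-1 (Spint1) and HAI-2 (Spint2), and an excess of matriptase over its inhibitors causes skin tumors in mice. The other members are further transmembrane proteases of the TMPRSS family, the secreted tryptase Prss22, and the kallikreins Klk6 and Klk10, secreted proteases encoded in one large gene cluster.

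Proteases and inhibitors did not move alike in MR13 cells. By limma with adjustment over all genes, 6 of the 8 proteases were lower, with log2 differences of -4.31 to -1.0, and none was higher. The inhibitors changed little, Spint1 upward by 0.36 and Spint2 downward by 0.25. In all, 7 of the 10 members were called lower at an adjusted p under 0.05, against 20.6% of all genes tested, and 1 was called higher, against 17.0%. Of the members 5 were called and at least 2-fold lower, against 2.10% of all genes. All 3 MR13 values lay below all 3 WTR- values for 7 members, a pattern seen in 25.2% of all genes, and above them for Spint1, a pattern seen in 22.2%. The median difference was -1.51 over the 8 proteases and 0.01 over all genes. Because the members were chosen with earlier results of these data known, the comparison with all genes is a description only.

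**Figure D1:**
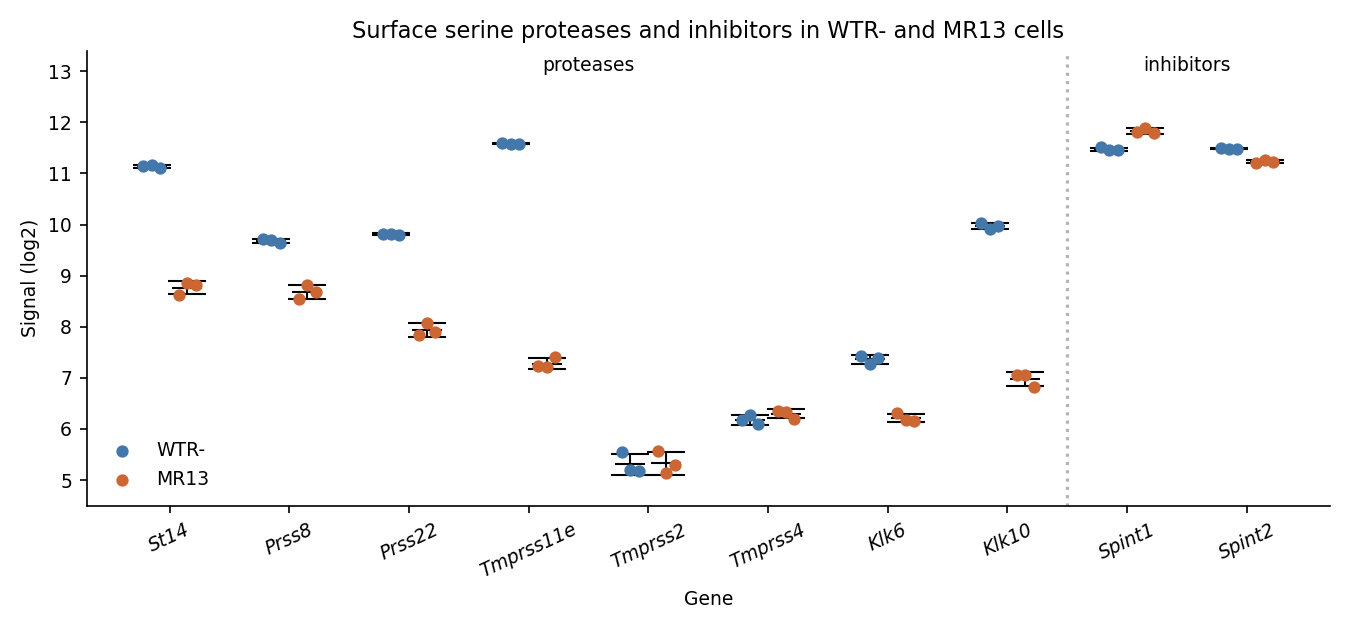
Signal on the log2 scale (y axis) for each of the 10 members (x axis), with 1 point for each array of WTR- or MR13 and black bars for the mean and SD of 3 arrays. St14, Prss8, Prss22, Tmprss11e, Klk6 and Klk10 were lower on every MR13 array. Spint1 was slightly higher and Spint2 slightly lower on every MR13 array, with all values of both between 11.21 and 11.89. Tmprss2 and Tmprss4 overlapped between groups.

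St14 gave 11.15, 11.17 and 11.11 on the WTR- arrays and 8.62, 8.85 and 8.82 on the MR13 arrays. The groups were 2.26 apart at their nearest values, while the widest range within a group was 0.23. The mean fell from 11.14 ± 0.03 to 8.76 ± 0.12 (SD, n = 3 each), a 5.21-fold decrease (95% CI 4.67 to 5.81, adjusted p = 3.4e-08). Prss8, which activates the epithelial sodium channel, gave 9.71, 9.70 and 9.63 in WTR- and 8.54, 8.82 and 8.68 in MR13. Its decrease was 2.00-fold (95% CI 1.78 to 2.25, adjusted p = 9.14e-06), on the edge of the 2-fold limit and just outside it. Every MR13 array was below every WTR- array for both genes, and MR13 replicate 1 was the lowest for both.

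Prss22, a tryptase of airway and other epithelia, gave 9.82, 9.82 and 9.79 in WTR- and 7.83, 8.08 and 7.89 in MR13. It was 3.68-fold lower (95% CI 3.29 to 4.11, adjusted p = 1.36e-07). Tmprss11e, a transmembrane protease of stratified epithelia also known as DESC1, gave 11.60, 11.57 and 11.58 in WTR- and 7.23, 7.21 and 7.40 in MR13. Its 19.8-fold decrease (95% CI 17.9 to 21.9, adjusted p = 1.3e-09) was the 10th lowest difference among the 19933 genes. The groups were 4.17 apart, against a range of 0.03 within WTR- and 0.20 within MR13. Tmprss11e also belongs to the signature that the study derived, outside these arrays, for 4T1 cells sorted as negative for SCA1.

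Both kallikreins fell. Klk10, a kallikrein of normal mammary epithelium, gave 10.03, 9.92 and 9.97 in WTR- and 7.06, 7.06 and 6.82 in MR13. This was a 7.97-fold decrease (95% CI 7.06 to 8.99, adjusted p = 1.61e-08) and the 38th lowest difference of all genes. Klk6, a trypsin-like kallikrein, gave 7.43, 7.27 and 7.38 in WTR- and 6.31, 6.18 and 6.16 in MR13. It was 2.21-fold lower (95% CI 1.99 to 2.46, adjusted p = 2.01e-06). The study lists Klk6 in its SCA1-positive signature, which it reports as enriched in MR13 as a set, so this gene moved against that set. The MR13 mean of Klk6 stood at percentile 41.5 of all gene means on these arrays. No detection calls were used, and background signal in dim values can understate a fold change.

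For the remaining pair of transmembrane proteases no difference was detected. Tmprss2, known for activating viral surface proteins, gave 5.55, 5.19 and 5.18 in WTR- and 5.57, 5.13 and 5.29 in MR13 (difference 0.02, 95% CI -0.27 to 0.31, adjusted p = 0.922). Tmprss4 gave 6.17, 6.28 and 6.09 in WTR- and 6.36, 6.34 and 6.20 in MR13 (difference 0.12, 95% CI -0.04 to 0.28, adjusted p = 0.244). The groups overlapped for both genes. Both were dim, with WTR- means at percentiles 27.1 and 41.3 of all genes, and whether either transcript was present above background is not known from these values.

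The inhibitors were bright on every array. Spint1 gave 11.51, 11.45 and 11.45 in WTR- and 11.81, 11.89 and 11.79 in MR13. The increase was 1.28-fold (95% CI 1.18 to 1.40, adjusted p = 0.000573), and all MR13 arrays were above all WTR- arrays by at least 0.28. Spint2 gave 11.50, 11.48 and 11.47 in WTR- and 11.21, 11.27 and 11.22 in MR13. It decreased 1.19-fold (95% CI 1.10 to 1.28, adjusted p = 0.00319), with the groups 0.20 apart. Both changes were small, and neither passed when limma tested for a difference beyond 1.5-fold (adjusted p = 1.0 for each).

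The promoter table held windows for 5 of the 10 members, with a second window for Klk6. The windows were compared over the 250 bases before the annotated start. Those of the inhibitors were rich in G and C, at 72.8% for Spint1 (percentile 94.1 of 32851 windows) and 69.6% for Spint2 (percentile 90.5), against 56.0% for Klk10 and a median of 52.4%. Spint1 held 26 CG dinucleotides and Spint2 held 24, whereas Klk10 held 2. The windows of Klk6 held 7 and 3, with 55.2% and 55.6% G and C, and that of Tmprss2 held 10, with 61.6%. No window was held for St14, Prss8, Prss22, Tmprss4 or Tmprss11e, so base content was not compared with the size of change. The windows of both inhibitors, Spint1 and Spint2, and of the protease gene Klk10 are shown. They are read 5′ to 3′ on the strand of the gene from RefSeq assembly GRCm38.p6, at chr2:119237110-119237359 (plus strand) for Spint1, chr7:29281978-29282227 (minus strand) for Spint2 and chr7:43780804-43781053 (plus strand) for Klk10, and capitals mark CAGGTG, the reverse complement of the E-box CACCTG.
Spint1: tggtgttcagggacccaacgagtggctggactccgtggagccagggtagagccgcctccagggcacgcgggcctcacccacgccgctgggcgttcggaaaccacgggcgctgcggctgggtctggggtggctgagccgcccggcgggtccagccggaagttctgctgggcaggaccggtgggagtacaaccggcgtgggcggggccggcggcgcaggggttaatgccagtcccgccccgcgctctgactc
Spint2: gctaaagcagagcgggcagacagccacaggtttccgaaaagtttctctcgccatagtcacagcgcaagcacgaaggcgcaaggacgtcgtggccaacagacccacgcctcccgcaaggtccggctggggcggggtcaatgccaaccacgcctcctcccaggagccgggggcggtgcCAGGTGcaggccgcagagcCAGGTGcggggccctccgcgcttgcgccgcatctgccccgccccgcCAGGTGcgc
Klk10: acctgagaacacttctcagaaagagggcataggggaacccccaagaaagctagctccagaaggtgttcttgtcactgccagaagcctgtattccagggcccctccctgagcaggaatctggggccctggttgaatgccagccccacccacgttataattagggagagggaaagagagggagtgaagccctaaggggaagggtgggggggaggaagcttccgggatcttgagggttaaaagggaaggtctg

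The E-box CACCTG, a motif read by ZEB and SNAI repressors, was searched on both strands. It occurred in the Spint2 window 3 times, starting 74, 55 and 9 bases before the start, and in none of the other 5 member windows. Of all 32851 windows 17.2% held at least 1 match and 0.247% held 3 or more. The limit of 3 equals the count in Spint2, and windows of like G and C content were not compared separately, so the latter share is a description only. Neither AACCNGTT, a grainyhead-like motif found in 1.79% of windows, nor TGANTCA, an AP-1 motif found in 6.75%, occurred in any of the 6 windows. Matches describe letters only, and no binding was measured here.

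To compare the changes of proteases with those of inhibitors on the same array, the log2 ratio of 2 members was taken within each array and expressed relative to its mean in WTR-. The ratio of St14 to Spint1 was -2.87, -2.71 and -2.65 on the MR13 arrays, a 6.69-fold decrease, and lay between -0.03 and 0.04 on the WTR- arrays. The ratio of St14 to Spint2 decreased 4.38-fold. The ratio of Prss8 to Spint1 decreased 2.56-fold and that of Prss8 to Spint2 decreased 1.68-fold, with values of -0.87, -0.64 and -0.73 on the MR13 arrays for the latter. St14 also decreased relative to Prss8, by 2.61-fold, so the proteases of the cascade changed by unequal amounts.

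The inhibitors moved apart from each other, with the ratio of Spint1 to Spint2 higher by 0.61, 0.63 and 0.59 on the MR13 arrays. Klk6 rose 3.60-fold relative to Klk10, since it had fallen less. For 7 of the 8 pairs compared, all MR13 values lay on one side of all WTR- values, and the exception was Tmprss2 to Tmprss4. The exact permutation test gave p = 0.10 for each of these 7 (two-sided, adjusted p = 0.114 over 8 pairs), which is the smallest p that 3 arrays against 3 allow, and p = 0.80 for Tmprss2 to Tmprss4 (n = 3 each). No pair could therefore pass a threshold of 0.05. The ratios restate the member values given above, and the share of separated pairs over all genes was not computed. Among single genes, all MR13 values lay below all WTR- values in 25.2% and above them in 22.2%. A ratio of signals shows unequal change and says nothing of the amounts of the proteins.

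**Figure D2:**
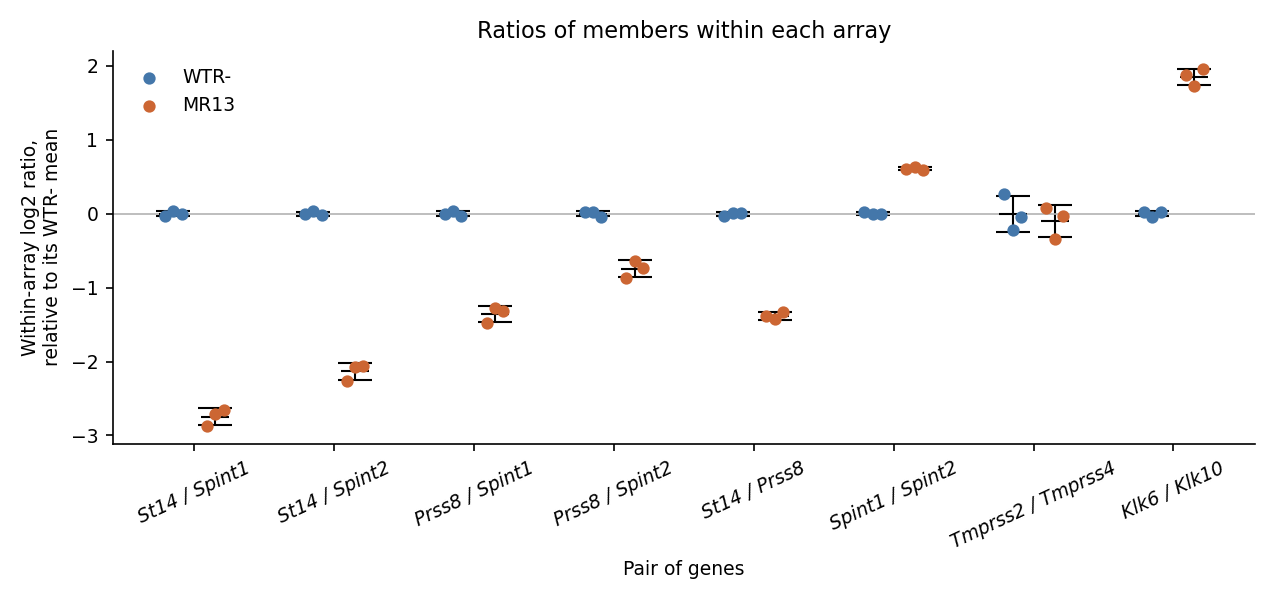
Log2 ratio of 2 members within an array, relative to the mean of that ratio in WTR- (y axis), for 8 pairs (x axis); points are arrays, and bars are means and SDs of the 3 arrays of a group. The ratio of St14 to Spint1 averaged -2.74 in MR13, that of Spint1 to Spint2 averaged 0.61, and the 2 groups overlapped for Tmprss2 to Tmprss4.

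Neighbouring family members were compared next. Klk10 and Klk6 lie in the kallikrein cluster, in which 21 of the 26 genes were measured. In chromosomal order on RefSeq assembly GRCm38.p6, Klk10 (-2.99) was followed by Klk9 (-0.19, not called), Klk8 (-2.85), Klk7 (0.01, not called), Klk6 (-1.15) and Klk5 (-0.20). Klk9 and Klk7, for which no difference was called, thus lay between genes that fell. Both were dim, with WTR- means at percentiles 33.0 and 40.0 of all genes. Whether either was present above background is not known, so a fall might not be seen. Klk8, a secreted kallikrein also called neuropsin, was not a member. It gave 10.47, 10.51 and 10.57 in WTR- and 7.61, 7.71 and 7.67 in MR13, a 7.23-fold decrease (adjusted p = 3.61e-09). In total 4 genes of the cluster were called lower and none higher. The fourth, Klk5, was dim (4.46 in WTR- and 4.26 in MR13, adjusted p = 0.037) and lost its call when WTR- replicate 1 or 2 or MR13 replicate 1 or 2 was left out. Values of the Klk1b genes are uncertain because these genes are near-identical copies.

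Tmprss11e lies at one end of a cluster of 7 Tmprss11 genes, all of them measured. The other 6 differed by -0.17 to 0.08 and none was called. These 6 were dim, with WTR- means of 3.68 to 4.75 against 11.59 for Tmprss11e. A fall as large as that of Tmprss11e could therefore not be seen in them. Of 39 nearest measured neighbours of the members, taken as 2 on each side, 6 were called lower, 3 higher and 30 neither, with a median difference of -0.04. Over all genes tested, 20.6% were called lower and 17.0% higher, and neither neighbour count exceeded those shares. The neighbours were compared after the members' values were known, and those named here were chosen after their own values were seen. The epithelial kinase gene Ripk4 beside Tmprss2 was lower by 1.71 (adjusted p = 9.62e-07), while Tmprss2 itself did not change detectably. Prss27 and Prss30, proteases on either side of Prss22, differed by -0.04 and 0.06 and were not called. Both genes on one side of Spint1 were called higher, as was Spint1 (0.36), namely Rhov by 0.35 (adjusted p = 0.00076) and Vps18 by 0.51 (adjusted p = 0.000143), whereas Ppp1r14d and Zfyve19 on its other side were not called. Of the other neighbours, Adamts8 near St14 differed by -1.03 and was called lower and Aplp2 on its other side was called higher by 0.38. Kat8 beside Prss8 (-0.31) and Ythdc1 beside Tmprss11e (-0.33) were also called lower.

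**Figure D3:**
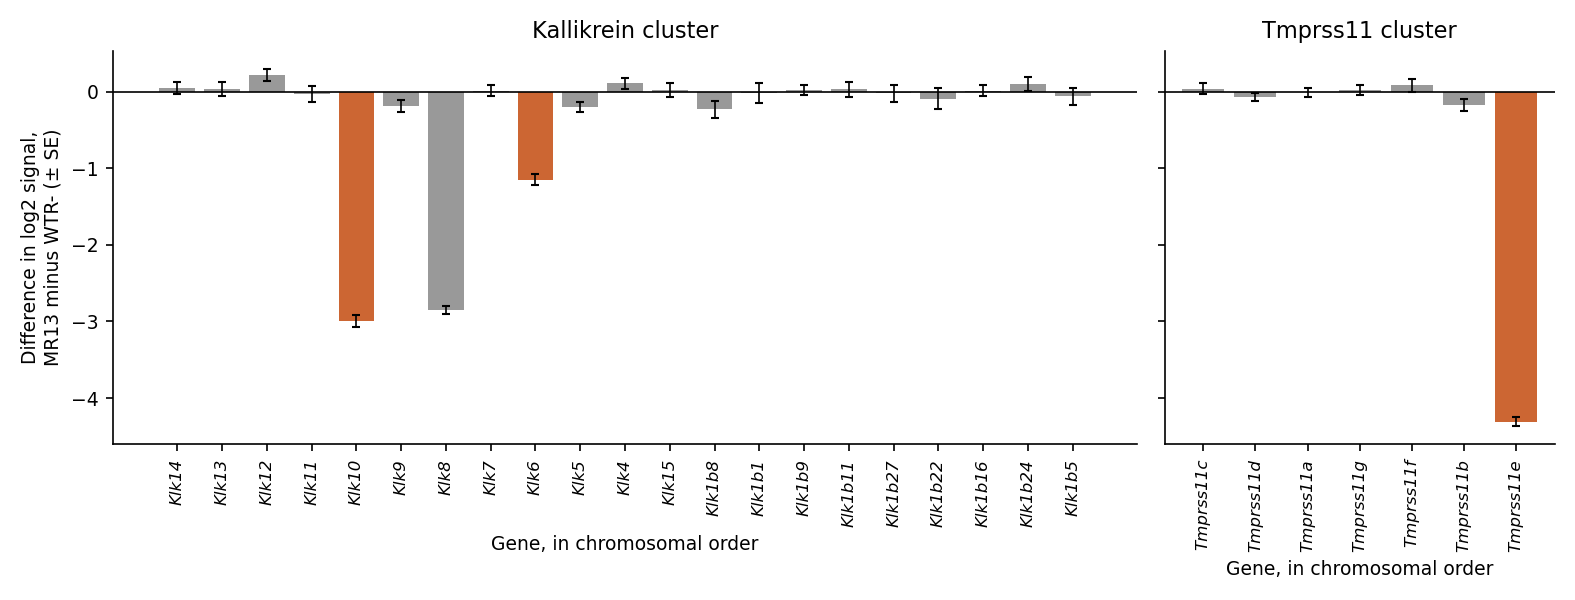
Difference in log2 signal, MR13 minus WTR- (y axis), of the measured genes of the kallikrein cluster (left) and the Tmprss11 cluster (right) in chromosomal order (x axis); bars are differences with their SE from limma, and orange bars are members. Klk10, Klk8, Klk6 and Tmprss11e stand below -1, and the other genes lie between -0.23 and 0.22. Signal levels are not shown, and Klk9, Klk7 and the other Tmprss11 genes were dim in WTR-.

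Among 16 other transmembrane serine proteases, such as the Tmprss11 genes, Tmprss3, Hpn and Corin, none was called by limma after adjustment and 2 had an unadjusted p under 0.05. Their differences ran from -0.17 to 0.20, and all of their signals lay between 3.57 and 6.86. Of 25 other tryptase-like and secreted serine proteases, 2 rose, 2 fell and 21 were not called (median 0.04). Among all genes 17.0% were called higher and 20.6% lower. Htra3, a secreted protease of the HtrA family, rose from 6.50 ± 0.19 to 8.27 ± 0.02 (SD, n = 3 each, 3.41-fold), and Htra1 rose by 0.27. Prss23 fell by 1.07 and the thymic-type protease Prss16 by 0.62. Of 18 other kallikreins listed, Klk8 and Klk5 fell and 16 were not called (median 0.01). Klk1b1, measured in the cluster (-0.02, not called), was not on this list. A further 6 genes of these 3 lists were not analysed here.

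The list of other inhibitors of serine proteases, which also held serpins included by family, went both ways. Of 20 measured, 3 rose, 7 fell and 10 were not called (median -0.03). Among all genes 17.0% were called higher and 20.6% lower. Slpi, a secreted inhibitor of leukocyte elastase, gave 11.66, 11.70 and 11.61 in WTR- and 13.56, 13.57 and 13.56 in MR13, a 3.75-fold increase (adjusted p = 2.11e-08). Serpinb5, the serpin-family protein maspin of mammary epithelium, was listed by family, and its change cannot be read as loss of a protease inhibitor. It gave 9.05, 9.0 and 9.25 in WTR- and 4.17, 4.51 and 3.81 in MR13. That was a 30.6-fold decrease in signal (adjusted p = 4.82e-08), with an MR13 mean at percentile 11.4 of all genes. Serpinb6b fell by 1.22 and Serpinb9, an inhibitor of granzyme B, by 0.64.

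Of 16 measured substrates, targets and partners of matriptase and prostasin, 8 fell, none rose and 8 were not called (median -0.36). The shares over all genes were 20.6% called lower and 17.0% called higher. Those that fell the most were cell-surface proteins of junctions and adhesion. Epcam gave 10.98, 11.02 and 11.02 in WTR- and 6.67, 6.80 and 6.66 in MR13 (19.7-fold lower). Cldn7, a claudin bound to EPCAM, was 14.1-fold lower, the desmosomal cadherin Dsg2 was 8.89-fold lower, and the matriptase substrate Cdcp1 was 1.94-fold lower. Named after their values were seen, the other 4 that fell were Met, the receptor of hepatocyte growth factor (-0.86), Pdgfc (-0.78), urokinase Plau (-0.68) and the sodium channel subunit Scnn1a (-0.57). For the growth factor gene Hgf itself and for the sodium channel subunits Scnn1b and Scnn1g no difference was called. These genes were dim, with WTR- means at percentiles 16.3, 16.6 and 20.3 of all genes, so their presence above background is not known.

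**Figure D4:**
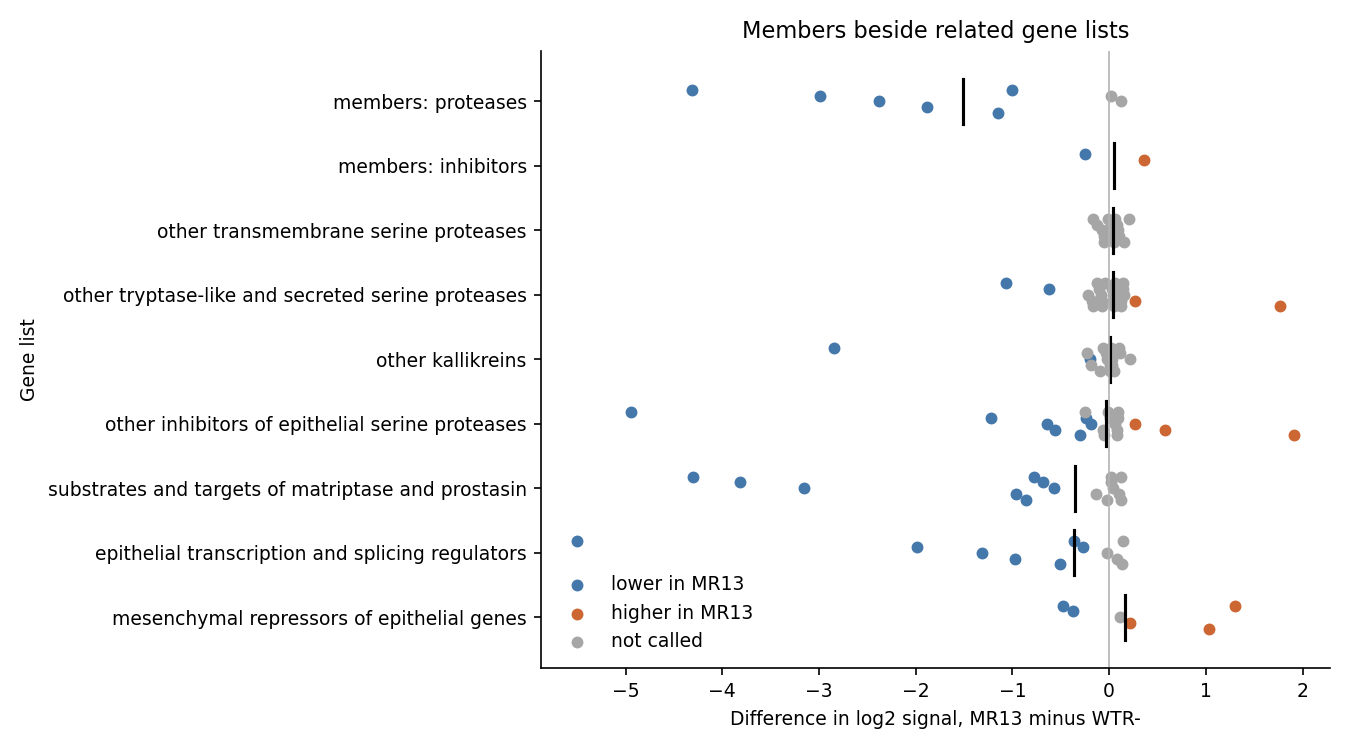
Each point is a gene, placed by its log2 difference between MR13 and WTR- (x axis), for the 2 groups of members and 7 related lists (y axis), with colours for the limma call and black bars for the median of a list. The member proteases have a median of -1.51, the other transmembrane proteases cluster around 0.03, and the substrates and targets reach -4.30.

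Epithelial regulators and their repressors were measured on the same arrays. Of 11 epithelial transcription and splicing regulators, 7 fell and none rose (median -0.36), against 20.6% of all genes called lower and 17.0% higher. Grhl2, a grainyhead-like factor of epithelial junction genes, fell from 8.80 ± 0.06 to 7.49 ± 0.08 (SD, n = 3 each, 2.48-fold, adjusted p = 5.62e-07). The splicing regulators Esrp1 and Esrp2 fell by 5.50 and 1.99, and the zinc finger factor Ovol1 by 0.97. Of 6 repressors of epithelial genes, Zeb2 rose by 1.30, Snai1 by 1.03 and Twist1 by 0.22, whereas Snai2 fell by 0.48 and Zeb1 by 0.37. The part of any of these regulators in the members' changes was not tested.

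Cell type markers were compared to see which cells the RNA represents. The epithelial keratins Krt8 and Krt18 were bright on all arrays, between 12.74 and 13.61, and Krt8 was not called. Krt7 (-4.52), Cdh1 (-3.24), Krt14 (-2.47) and Krt19 (-2.23) fell with the proteases, Krt18 fell by 0.19, and Krt5 rose by 0.27 with overlapping groups. The mean log2 level of the 7 epithelial markers was 10.70 to 10.80 on the WTR- arrays and 8.92 to 9.11 on the MR13 arrays. Of 7 fibroblast markers, Pdgfra (1.82) and Dcn (1.70) rose and the other 5, among them the collagen genes Col1a1, Col1a2 and Col3a1, were not called. The mean level of that list was 6.13 to 6.22 in WTR- and 6.68 to 6.82 in MR13. Of 6 leukocyte markers only Cd68 was called (0.35), with list means of 5.65 to 5.70 and 5.76 to 5.77, and none of the 5 endothelial markers was called by limma (0 at an unadjusted p under 0.05), with list means of 4.86 to 4.97 and 4.92 to 5.01. The part of these marker differences in the result was not tested. Across arrays, correlations over all probe sets were at least 0.998 within a group and at most 0.987 between groups, and no array stood apart from its group.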

How the data were processed

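Log2 signals of 6 arrays, 3 WTR- and 3 MR13, were deposited as 1 value per probe set after normalisation by the authors. The submitters' processing notes name the R packages affy and limma, and no version, background correction or summarisation is given in the sources used here. Values were taken as log2 from their range, with array medians of 6.57 to 6.62. The number of arrays limits the precision. The annotation paired 21780 of 28350 probe sets with 1 symbol. Of several probe sets of a gene the brightest over 6 arrays was kept, which gave 19933 genes. Groups were taken from the sample titles.

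MR13 was compared with WTR- by limma 3.58.1 in R 4.3.3 (lmFit and eBayes, two-sided, no covariate), with Benjamini-Hochberg adjustment over all genes and calls at an adjusted p under 0.05. The members and gene lists were chosen with earlier results of these data known. Named genes were all members and, per related list, up to 4 called genes with the largest differences whose groups did not overlap; others are named as chosen after their values were seen, and markers as their lists hold them. Motifs were searched in promoter windows of the RefSeq assembly GRCm38.p6. The limma fit was tested on simulated data. Alternatives covered scaling, a filter on dim genes, probe sets, the variance prior, a replicate block, each array left out, the methods' t-test and a fold minimum.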

Additional observations from a re-analysis of the deposited data

How the results depend on the processing

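The count of 7 members called lower was 6, without Spint2, when limma's treat required a difference beyond 1.5-fold and 7 under the other alternatives run. Under treat the count of members called higher went from 1 to 0, because Spint1 lost its call, and the number of genes called went from 7497 to 1164. The count of members at least 2-fold lower ran from 5 to 6 with each array left out in turn, and was 6 without MR13 replicate 2 or WTR- replicate 3, Prss8 being the member at the limit. With the replicate number as a block, 7 members were called lower, 1 was called higher and 7442 genes were called, and that block changed no member's call. It was not used in the main comparison because the deviations of same-numbered arrays correlated at 0.13, 0.00 and 0.18, and the arrays did not all correlate best with their own number. Over 10 members and their alternatives, 157 of 159 comparisons kept their side of the threshold, and the others were Spint1 and Spint2 under treat. The members kept their direction except Tmprss2, which was not called and whose difference of 0.02 was -0.01 after quantile normalisation, -0.10 without MR13 replicate 1, and -0.04 without WTR- replicate 2 or 3. Of the 22 other named genes, 14 of 350 comparisons lost the call, 9 of them for Klk5 (adjusted p = 0.0623 with the replicate block), and the others under treat for Prss16, Htra1, Serpinb9, Snai2 and Zeb1. The number of genes called ran from 6716 to 6971 with 1 array left out. The methods' t-test with Benjamini-Hochberg adjustment called 7 members lower, 1 higher, and 0 of the 16 other transmembrane proteases and 0 of the 5 endothelial markers. The absence of detection calls limits what can be said of Tmprss2, Tmprss4 and other dim genes.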
